A study of Drosophila melanogaster with 3 samples.

Results

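The genes described here encode the proteins of the cytosolic ribosome of Drosophila melanogaster. The rule for members used names and no measured value: they are the protein-coding genes of the Ensembl annotation whose symbol starts with RpL or RpS and a digit, or with RpLP. The rule found 92 genes among 13945 protein-coding genes: 50 named for the large subunit, 38 named for the small subunit, and 4 named for the stalk. The data were peak lists from chromatin immunoprecipitation sequencing (ChIP-seq) of CoRest, which carried a C-terminal green fluorescent protein (GFP) tag and was pulled down with an anti-GFP antibody. The samples formed 1 group of 3 biological replicates of whole embryos of pooled sexes, collected 0 to 24 hours of age, and chromatin was sonicated to 200 to 800 bp. All 3 replicates came from the same transgenic line, so a line without the tag, another genotype or another stage was not compared. Whole embryos mix all cell types, and peak lists hold no expression values, so the tissue could not be checked against marker genes.

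Each ribosome is built from a large and a small subunit. The small subunit decodes the messenger RNA and the large subunit joins amino acids, while the stalk of the large subunit draws in the elongation factors. Ribosomal protein genes are among the most actively transcribed genes of growing cells, and in flies many of them start transcription at a pyrimidine-rich initiator, the TCT element, in place of the usual initiator. CoRest is the scaffold of a corepressor complex that joins a histone demethylase and a histone deacetylase. The comparison below asks at which ribosomal protein promoters the tagged protein was found, where on the promoter, and how firmly over the replicates.

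A gene was called bound when the summit of a peak, its highest point, lay within 500 bp of one of its annotated start sites. The sequences of 6 promoters are shown first because they carry the main features described below. They were read from the RefSeq assembly of the Release 6 genome (dm6), 5′ to 3′ along each gene's own strand, and each window reaches 50 bases to both sides of the strongest summit. The windows lay upstream of the gene, outside annotated exons. RpL34b (chr3R:9401316-9401416, minus strand) and RpL23A (chr3L:1668713-1668813, minus strand) are shown as 2 of the strongest member peaks, and RpS20 (chr3R:20821984-20822084, plus strand) as a strong peak of the small subunit. RpL28 (chr3L:3223020-3223120, minus strand), RpS25 (chr3R:11216313-11216413, minus strand) and RpS10b (chrX:19597915-19598015, plus strand) are shown because the DNA replication-related element (DRE) lies close to the summit, and capitals mark that element.
RpL34b: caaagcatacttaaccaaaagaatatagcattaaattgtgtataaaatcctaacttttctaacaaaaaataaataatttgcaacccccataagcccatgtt
RpL23A: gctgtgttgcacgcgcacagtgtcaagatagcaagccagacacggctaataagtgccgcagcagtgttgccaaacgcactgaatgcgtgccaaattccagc
RpS20: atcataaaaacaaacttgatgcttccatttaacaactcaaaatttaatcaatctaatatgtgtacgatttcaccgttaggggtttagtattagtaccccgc
RpL28: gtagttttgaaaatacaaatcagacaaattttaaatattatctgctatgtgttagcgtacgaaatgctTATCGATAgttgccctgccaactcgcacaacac
RpS25: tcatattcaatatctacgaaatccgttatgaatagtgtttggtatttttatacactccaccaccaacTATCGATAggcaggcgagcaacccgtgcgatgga
RpS10b: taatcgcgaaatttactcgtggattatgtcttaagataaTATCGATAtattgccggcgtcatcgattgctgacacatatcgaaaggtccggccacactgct
The DRE lay centred 22 bp downstream of the summit in RpL28, 21 bp downstream in RpS25 and 7 bp upstream in RpS10b. No DRE was found in the windows of RpL34b, RpL23A and RpS20.

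A second set shows the TCT element at the start site of 6 bound members, in windows of 15 bases before and 15 bases from the start site on, with capitals for the core CTTTNT. RpL34b (chr3R:9401212-9401241, minus strand), RpL32 (chr3R:30046147-30046176, minus strand), RpL4 (chr3R:27922806-27922835, plus strand), RpS6 (chrX:7901317-7901346, minus strand), RpS14a (chrX:7933727-7933756, plus strand) and RpS25 (chr3R:11216273-11216302, minus strand) all hold it within 5 bp of the start. RpS9 (chr3L:9511517-9511546, minus strand) is added as a member that holds the core but was not bound.
RpL34b: gcgcgaacagggttgccacCTTTCTttcta
RpL32: tcacaccaccagCTTTTTcttttcgcttct
RpL4: agccatttccggcagctctCTTTCTttctt
RpS6: tacttcctcctatcggtCTTTTTcaaccct
RpS14a: ttgacagctacgtcaaccttCTTTTTtgat
RpS25: ggccgtttccgccctccatCTTTCTgcatt
RpS9: tcacactaccttcacccctCTTTCTttttc
Last, the 100 bases upstream of RpL9 (chr2L:11004190-11004289, minus strand) and of RpL40 (chr2L:4227599-4227698, plus strand) are shown as the promoters of 2 single-copy members that were not bound. Both are in lower case throughout.
RpL9: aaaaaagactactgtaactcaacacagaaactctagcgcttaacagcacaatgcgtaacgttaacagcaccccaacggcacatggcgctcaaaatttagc
RpL40: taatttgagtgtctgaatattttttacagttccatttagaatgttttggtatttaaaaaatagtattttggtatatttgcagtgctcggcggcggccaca
Neither promoter held a DRE or the TCT core CTTTNT in the windows searched.

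Most ribosomal protein promoters were bound. In the authors' list thresholded on reproducibility (IDR), 79 of 92 members (85.9%, exact 95% interval 77.0 to 92.3%) had a promoter peak, against 35.4% of all protein-coding genes. Among the 8721 strongest peaks of each replicate, a number equal to the length of the thresholded list, 78 members had one in replicate 1, where 36.2% of all genes did. In replicate 2 it was 78 members against 36.6%, and in replicate 3 it was 77 members against 33.6%. The replicates therefore gave 84.4% ± 0.628 of the members (SD, n = 3) and 35.5% ± 1.63 of all genes, and in each replicate the members' share was more than double that of all genes. The same 72 members had a promoter peak in all 3 strongest lists, 6 in 2 of them, 5 in 1 and 9 in none. In the full pooled list of 30000 peaks, 86 members (93.5%) had one, against 51.8% of all genes. Of the 79 bound members, 73 had a summit within 100 bp of the thresholded one in all 3 replicates and 6 in 2 replicates. With only peaks found in all 3 replicates, 76 members were bound, and the share of all genes fell from 35.4% to 32.0%. The splits over replicates were not set against all genes, so such recurrence was not shown to be particular to the members. The intervals cover counting error over genes only, and the number of reads behind the peaks is unknown.

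**Figure D1:**
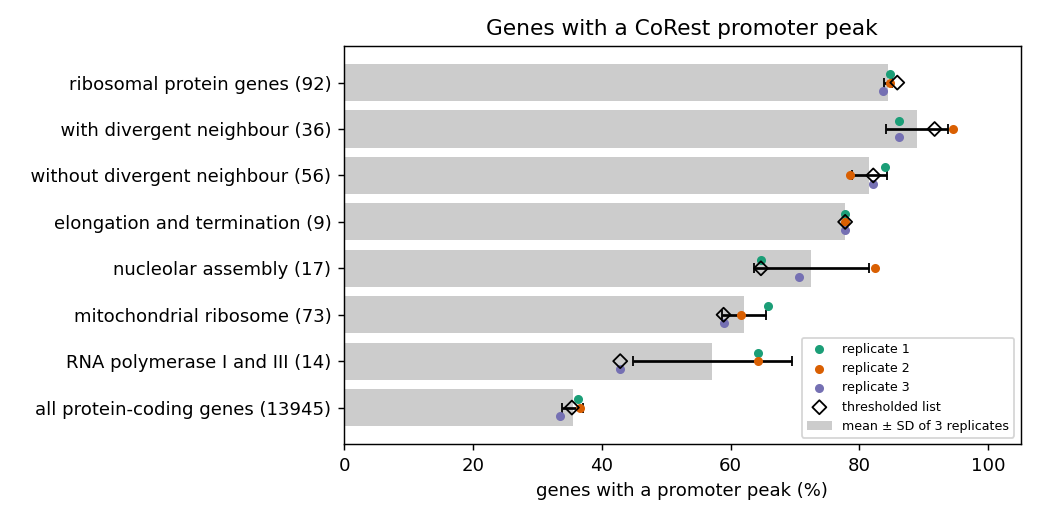
Share of genes (x axis, %) with a CoRest summit within 500 bp of a start site, for the ribosomal protein genes, for other gene groups of protein synthesis and for all protein-coding genes, with the number of genes in parentheses. Dots are the 8721 strongest peaks of each replicate, bars and lines their mean ± SD (n = 3), diamonds the thresholded list; the members stand at 84.4% ± 0.628 and all genes at 35.5% ± 1.63.

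Members with and without a head-to-head neighbour were both bound more often than all genes of their kind, with 82.1% against 24.7% and 91.7% against 63.6%. A divergent neighbour was a gene of the opposite strand whose start site lay head to head within 500 bp, and it was found at 39.1% of the members, 27.4% of all genes and 72.6% of the mitochondrial ribosomal protein genes. Of the 56 members with no divergent neighbour, 46 (82.1%) were bound. The replicates gave 81.5% ± 2.73 for these members (SD, n = 3). Of the 36 members with a divergent neighbour, 33 (91.7%) were bound, and the replicates gave 88.9% ± 4.81. A peak in such a pair belongs to both genes. RpL7 starts 30 bp from Ripalpha and RpL13 starts 84 bp from Dref, which encodes the factor that binds the DRE. RpL14 is paired with Nelf-E, a subunit of the complex that holds paused RNA polymerase, and RpL28 with the initiation factor gene eIF1. For 39 of the 79 bound members no other protein-coding start site lay within 500 bp of the summit.

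The members' peaks lay mostly in the upper part of the list, but few were at its top. Peaks were ranked within each list by the authors' signal value, 1 being the strongest. There were 8 members (8.70%, exact 95% interval 3.83 to 16.4%) among the strongest 1000 thresholded peaks, where 6.28% of all genes had one, a share inside the members' interval. Among the strongest 100 peaks there were 0 of 92 members, which allows a share of up to 3.93%, against 0.674% of all genes. The median rank of the 79 members was 2777 (quartiles 1724 and 5014), against 3386.5 for all bound genes (quartiles 1461 and 5628.75). The replicates' medians were 2934, 3209 and 2677 for the members and 3463, 3559 and 3205 for all genes. The members' median was thus nearer the top in each replicate, though the highest of their 3 medians lay beside the lowest of the all-gene medians. Of the bound members, 10.1% ranked from 101 to 1000, against 15.9% of all bound genes. Ranks 1001 to 2000 held 15 members (19.0%, against 14.7%) and ranks 2001 to 3000 held 19 (24.1%, against 12.9%). Past rank 8000 lay 2 members (2.53%, against 4.71%). These differences were not tested.

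**Figure D2:**
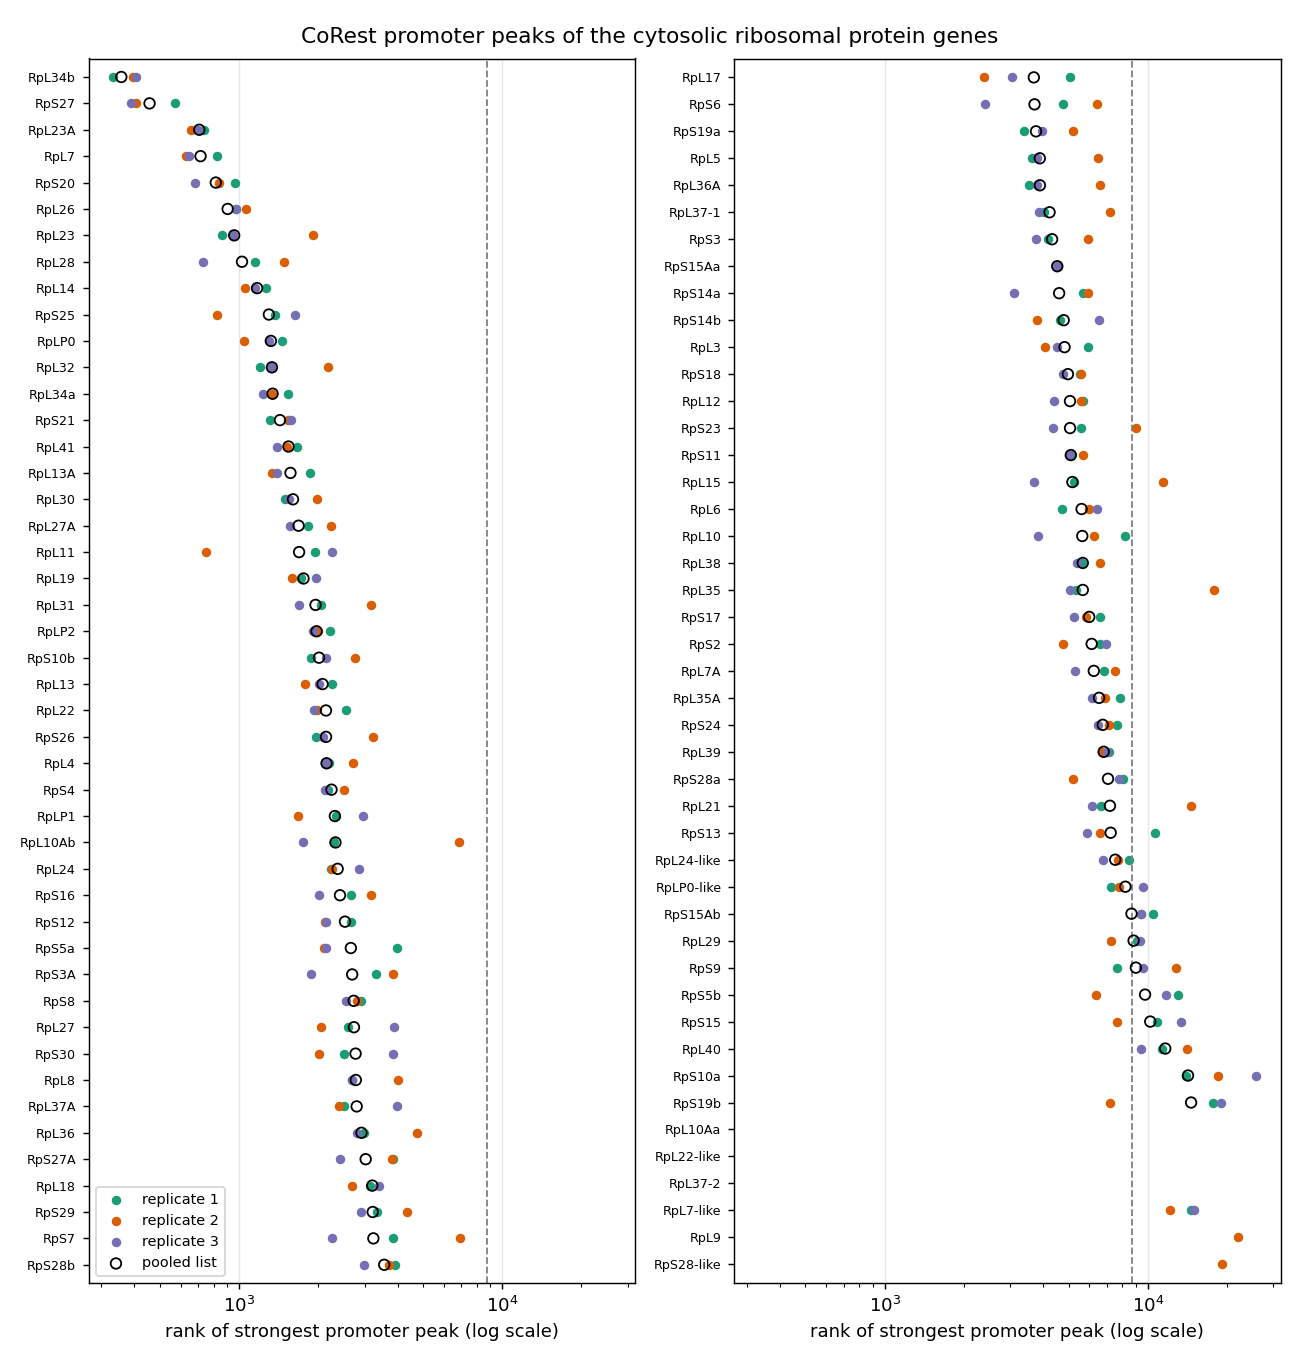
Rank of the strongest promoter peak (x axis, log scale, 1 = strongest) of the ribosomal protein genes, 1 of the 92 being left out, with dots for the 3 replicate lists and open circles for the pooled list; the dashed line marks rank 8721, the end of the thresholded list. Members run from rank 357 for RpL34b to genes with no promoter peak, and for 66 of the 79 bound members the replicate ranks lie within 2-fold of each other.

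Replicates ordered the members alike. Across the 79 bound members, Spearman's rho of the ranks was 0.870 between replicates 1 and 2, 0.918 between 1 and 3, and 0.802 between 2 and 3, given as a description since the genes share the libraries. The highest and the lowest of a member's 3 replicate ranks differed by a median of 1.45-fold, and for 66 of 79 members by no more than 2-fold. Ranks of RpS15Aa differed least, by 1.01-fold. Those of RpL10Ab, RpL35, RpL15, RpS7 and RpL11 differed by over 3-fold, up to 3.89-fold in RpL10Ab.

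Among the 12 best ranked members, 9 encode large-subunit or stalk proteins and 3 small-subunit proteins. Of all 92 members, 50 are named for the large subunit, 4 for the stalk and 38 for the small subunit, and the split was not tested. RpL34b, which encodes a large-subunit protein, had the strongest member peak at rank 357 (3R, 9401136 to 9401580), with ranks of 333, 394 and 407 in replicates 1, 2 and 3. RpS27, of the small subunit, came next at rank 457 (3R, 25247363 to 25247744), with replicate ranks of 572, 407 and 390. RpL23A, whose protein sits near the exit of the peptide tunnel, ranked 706 (3L, 1668591 to 1668931), with 735, 654 and 701 in the replicates. The RpL23A peak was the strongest member peak with no other protein-coding start site within 500 bp of its summit. RpL7 ranked 714 (822, 626 and 647 in replicates 1, 2 and 3), and RpS20, a protein of the small-subunit head, 816 (966, 839 and 682). These genes held their place in every replicate, since none of the ranks named so far passed 1000.

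The next members ranked close behind. RpL26 ranked 905 (971, 1067 and 976 in replicates 1, 2 and 3) and RpL23 958 (862, 1916 and 945). RpL28 ranked 1026 (1149, 1486 and 732) and RpL14 1171 (1266, 1052 and 1146). RpS25, a small-subunit protein known for its part in translation from internal ribosome entry sites, ranked 1298 (1371, 828 and 1631). In this series RpL23 stood lower in replicate 2 than in the other replicates, and RpS25 higher.

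The stalk genes were all bound. RpLP0, the base of the stalk, ranked 1321 with 1458, 1048 and 1299 in replicates 1, 2 and 3. RpLP1 ranked 2312 (2328, 1675 and 2946) and RpLP2 1970 (2211, 1996 and 1911); both encode the acidic proteins that bind RpLP0 in pairs. RpLP0-like, related to the yeast ribosome assembly factor Mrt4, ranked far lower at 8213 (7212, 7737 and 9561). By subunit, 43 of 50 large-subunit members (86.0%; replicates 84.7% ± 2.31) and 32 of 38 small-subunit members (84.2%; replicates 83.3% ± 3.04) were bound, a difference smaller than the SD of either. Their median ranks were 2369 and 3399.5.

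Unbound members were found in many families of paralogs. The 92 symbols held 13 families of paralogs with 27 members, of which 19 were bound, while 60 of the 65 other symbols were bound, a difference that was not tested. In 7 pairs a single gene was bound, as follows, among them RpL7 described above. RpL10Ab ranked 2324 (2292, 6826 and 1753 in replicates 1, 2 and 3), while RpL10Aa had no promoter peak in any list. RpL22 ranked 2139 (2543, 1976 and 1926), while RpL22-like, known for its expression in the testis, had none in any list. RpL37-1 ranked 4231 (4014, 7198 and 3858), while RpL37-2 had none in any list. These 3 unbound paralogs had their nearest thresholded summit 50417, 7353 and 8145 bp away from their start sites.

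Small-subunit pairs showed the same split with weaker peaks at the unbound gene. RpS10b ranked 2013 (1874, 2750 and 2147 in replicates 1, 2 and 3), while RpS10a ranked 14205 in the pool (13903, 18429 and 25675). RpS19a ranked 3759 (3398, 5190 and 3948), and RpS19b, known from the germline, 14596 (17711, 7190 and 18988). RpS5a ranked 2659 (3987, 2102 and 2140), and RpS5b, also known from the germline, 9758 (12984, 6328 and 11711). In replicate 2 the peaks of RpS19b and RpS5b fell within the strongest 8721 and in the other replicates they did not. RpS28b ranked 3561 (3912, 3699 and 2991) and RpS28a 7055 (8076, 5177 and 7798), whereas RpS28-like had a promoter peak in replicate 2 alone, at rank 19189.

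In the other families both genes were bound, at similar or at unequal ranks. RpL34a ranked 1341 (1538, 1334 and 1229 in replicates 1, 2 and 3), below RpL34b in every replicate. RpS14a ranked 4601 (5652, 5917 and 3111) and its neighbour RpS14b 4788 (4644, 3778 and 6513), with no constant order over the replicates. RpS15Aa ranked 4524 (4544, 4569 and 4509) and RpS15Ab 8664 (10452, 9441 and 9400). RpS14a, RpS14b and RpS15Ab are among 4 members in which under 95% of the 31-base sequences around the start site occur once in the assembly. The shares were 86.0%, 84.0% and 81.6%, so reads there may be shared with copies. RpL24 ranked 2369 (2235, 2251 and 2844) and RpL24-like, related to the yeast assembly factor Rlp24, 7514 (8509, 7698 and 6742). RpL7-like, related to yeast Rlp7, had no promoter peak in the pooled list although each replicate list held one, at ranks 14563, 12163 and 14940.

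Single-copy members made up 5 of the 13 without a thresholded promoter peak, and 4 of these ranked between 8827 and 11641 in the pool. RpL29 ranked 8827 (9122, 7231 and 9332 in replicates 1, 2 and 3) and RpS9 9002 (7610, 12831 and 9547). RpS15 ranked 10210 (10792, 7645 and 13351) and RpL40 11641 (11307, 14038 and 9453). RpL9 was the exception, with a promoter peak in replicate 2 alone, at rank 22017. RpL40 encodes a large-subunit protein made as a fusion with ubiquitin, and RpS27A, the other ubiquitin fusion, was bound at rank 3027 (3844, 3798 and 2426). The nearest thresholded summits of RpL40 and RpS15 lay 551 and 564 bp from the start site, just outside the promoter window. In all, 7 of the 13 had a promoter peak in the full pooled list. Of all 13945 protein-coding genes, 4930 had a thresholded promoter peak and 7229 had one in the full pooled list. The count of 7 was thus not shown to be particular to the members. The promoters of the 13 were at least 98.6% unique in sequence.

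Weak peaks and peaks at the edge of the window were the other marginal cases. RpS13, at the junction of the subunits, ranked 7223 (10657, 6588 and 5892 in replicates 1, 2 and 3) and with RpL24-like, RpLP0-like and RpS15Ab made up the 4 worst ranked bound members. Each of these 4 shares its promoter region with a divergent gene, as did 33 of all 79 bound members. Over the set, bound members with a divergent neighbour ranked nearer the top, with a median of 2076 against 3399.5 for those without one. This difference was not tested. RpL35 ranked 5659 (5316, 17861 and 5073) with its summit at -476 bp from the start site, and RpS23, which lies in the decoding center, ranked 5062 (5547, 9032 and 4364) with its summit at -477 bp. The strongest promoter summit of RpL35 lay at -481, 66 and -476 bp in replicates 1, 2 and 3, and that of RpS23 at -477, -7 and -270 bp. Each replicate still held a summit within 100 bp of the thresholded one at both genes.

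Summits lay upstream of the start site and closer to it than at other genes. The median position of the members' strongest summit was -78 bp (quartiles -139.5 and -44.5, negative values being upstream), against -137 bp for all bound genes. The replicates gave -83.5, -68 and -95 bp for the members (mean -82.2 ± 13.5, SD, n = 3) and -136, -125 and -144 bp for all genes (mean -135 ± 9.54). The values did not overlap, the members' most distant replicate median being -95 bp and the nearest of all genes -125 bp. In 70 of 79 members (88.6%) the summit was upstream, close to the 90.2% of all genes. Within 50 bp of the start site it lay in 22 members (27.8%; replicates 28.7% ± 8.62), against 14.3% of all genes (replicates 15.2% ± 3.16). The 50-bp bin from -100 to -50 bp held 23 members, the most of any bin. Members with no divergent neighbour also had their median summit at -78 bp, against -145 bp for all such genes. Whether gene pairs bear on the summit position was not tested. Mitochondrial ribosomal protein genes stood at -137 bp.

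**Figure D3:**
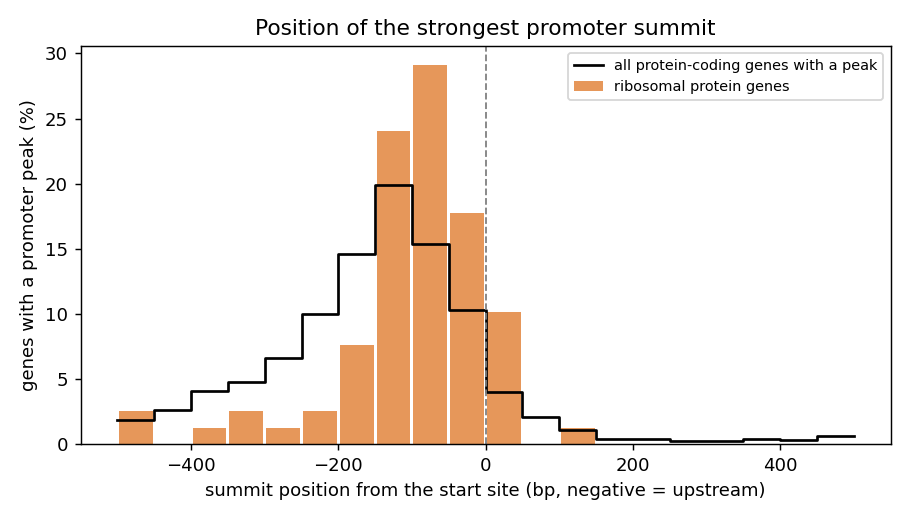
Position of the strongest thresholded promoter summit relative to the nearest start site (x axis, bp, negative = upstream) as a percent of bound genes per 50-bp bin (y axis), for 79 ribosomal protein genes (filled bars) and 4930 protein-coding genes (line). The members' fullest bin is -100 to -50 bp with 23 genes, and the median is -78 bp against -137 bp for all bound genes.

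Most members carried a single summit at the promoter. The 79 best peaks were 79 distinct peaks, and 94 thresholded summits lay in the members' promoter windows. A single summit was found at 64 bound members (81.0%), against 85.0% of all bound genes, and 2 summits at the other 15.

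Sequence elements of housekeeping promoters were searched from 250 bases before to 50 bases after 1 RefSeq start site per gene. The DRE, TATCGATA on either strand, to which the factor DREF binds, was present in 28 members (30.4%), against 9.35% of all genes and 15.9% of all bound genes. The core of the site of M1BP, a factor known for its sites at ribosomal protein genes, is GGTCACAC on either strand, and was present in 14 members (15.2%), against 7.70% and 13.8%. The TCT core CTTTNT on the sense strand within 5 bp of the start was present in 16 members (17.4%), against 1.46% and 1.78%. In the mitochondrial ribosomal protein genes the DRE was present in 20.5% and the TCT core in 1.37%. Elements of regulated promoters were less frequent in the members than among all genes, in part as in bound genes and in mitochondrial ribosomal protein genes. TATAAA on the sense strand, 45 to 16 bases before the start, was found in 1 member (1.09%), RpL39, against 8.75% of all genes, 2.76% of bound genes and 6.85% of mitochondrial ribosomal protein genes. The usual initiator TCAGTN was found at the start of 1 member (1.09%), RpL23A, against 10.1%, 7.34% and 1.37% of the same groups. GAGAG on either strand was present in 17.4%, against 29.7%, 27.8% and 16.4%. The E-box CACGTG, the site of Myc, was present in 8 members (8.70%), against 4.20%, 4.50% and 6.85%. CGATA, the site of the insulator protein BEAF-32, lies within the DRE. Outside a DRE it was present in 58 members (63.0%), against 44.8% of all genes and 52.5% of bound genes.

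**Figure D4:**
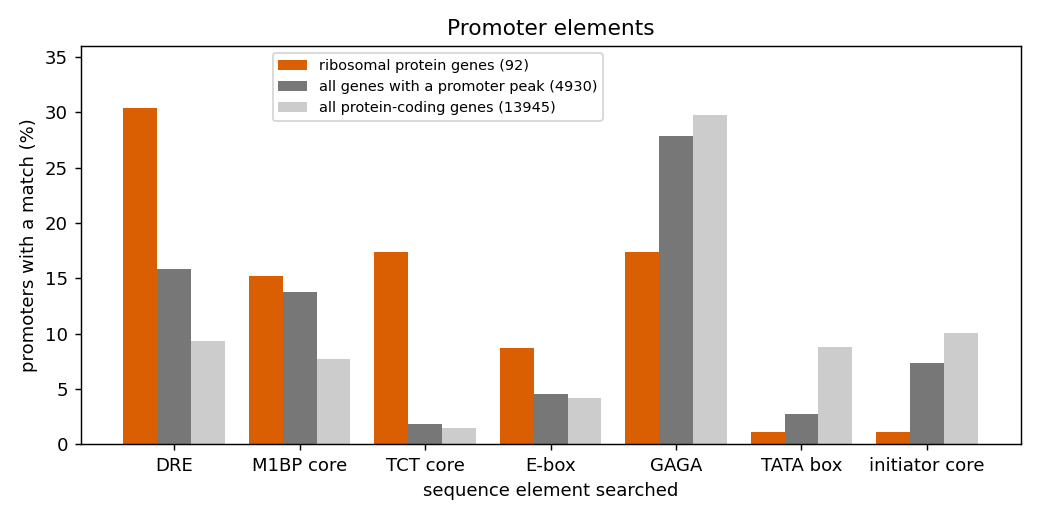
Percent of promoters (y axis) that hold each of 7 sequence elements (x axis) for the 92 ribosomal protein genes, the 4930 bound protein-coding genes and all 13945 protein-coding genes. The DRE is at 30.4% of the members against 9.35% of all genes, the TCT core at 17.4% against 1.46%, and the TATA box at 1.09% against 8.75%.

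The members were bound with and without matches to these elements as searched. Of the 28 members with a DRE, 27 (96.4%) were bound, the exception being RpL7-like, and 60.0% of all genes with a DRE were. Of the 64 members with none, 52 (81.3%) were bound, against 32.8% of all genes with none. With the TCT core 14 of 16 members were bound, RpS5b and RpS9 being the exceptions, against 43.1% of all genes with it. With the M1BP core 11 of 14 members were bound, against 63.2%. Even of the 44 members with none of the 3 elements as searched, 36 (81.8%) were bound, against 30.2% of all such genes. The shorter TCT core CTTT was found in 33.7% of all members, against 17.4% with CTTTNT, so this class may hold further TCT starts. The members' share was 78.6% or more in each of these classes. Summits also lay near the DRE where there was one: the median distance from the DRE's centre was 35 bp over 27 bound members, and 16 of them were within 50 bp. The DRE centres had a median of -51 bp from the start site, and the members' summits one of -78 bp. Whether the summits lay nearer to the DRE than these positions alone would give was not tested. From the M1BP core the median distance was 155 bp over 11 members, with 2 within 50 bp. Within 100 bp of the summit a DRE was found at 25.3% of the members' peaks, against 9.68% of the best promoter peaks of all genes, and the M1BP core at 7.59% against 6.65%. GC content in the same windows had a median of 37.3% at the members and 33.8% at all.

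Other genes of protein synthesis were bound to differing extents. Of 9 translation elongation and termination factor genes, 7 were bound (77.8%; replicates 77.8% ± 0, SD, n = 3), the strongest being the release factor genes eRF3 at rank 653 and eRF1 at 1009 and the elongation factor gene eEF1gamma at 980. Of 17 nucleolar ribosome assembly genes, 11 were bound (64.7%; replicates 72.5% ± 8.99), led by eIF6, which keeps the subunits apart, at rank 54, Ns2 at 163 and nop5 at 1253. The RNA polymerase I and III subunits, which make ribosomal and transfer RNA, had 6 of 14 bound (42.9%; replicates 57.1% ± 12.4). Of the mitochondrial ribosomal protein genes 43 of 73 were bound (58.9%; replicates 62.1% ± 3.45). The members' replicate shares, 83.7 to 84.8%, lay above every replicate share of these 4 lists. The nearest was 82.4%, for 14 of the 17 nucleolar assembly genes in replicate 2. Lists of 9 to 17 genes are small, and these differences were not tested. Outside the naming rule, the small-subunit protein gene sta was bound at rank 4849 and Rack1, a scaffold on the small subunit, at 3207.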

How the data were processed

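CoRest-GFP ChIP-seq was measured in 3 embryo samples labelled as biological replicates. Per the deposited file listings, the authors made 1 peak list per replicate and 1 from the pooled alignments, each with the same 1 control file, on dm6, and thresholded them on reproducibility. Names of the aligner and peak caller and the threshold were not given in the sources used here. The peak signal in column 7 is the authors' deposited value, of no stated normalization, and served only for ranking inside a single list. No result rests on the −log10 q-values that the authors deposited. All 8721 thresholded peaks are in the pooled list and are its strongest 8721. Summits were taken as deposited, 3 of them outside their interval.

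Gene and start-site annotation came from Ensembl release 115, and sequence, with 1 start site per gene for the elements, from the RefSeq annotation of the same Release 6 assembly. Chromosome lengths and peak ends were compared first. Python 3.11.15, NumPy 2.4.6, pandas 2.3.3, SciPy 1.17.1 and matplotlib 3.10.9 were used, and the assignment of summits to genes was tested on simulated data. Shares have exact Clopper-Pearson 95% intervals where given, and replicate spread is the SD over 3 samples. With 1 group no condition was compared and no test was made. The members and lists were chosen with earlier results of these data known. Genes were named by rule: the 12 best and 4 worst ranked bound members, all unbound members, all paralogs, the stalk genes, the ubiquitin fusions and members within 50 bp of the window's edge. RpL13, RpL39, RpL11, RpS7, RpL15, RpL5, RpL38, RpS3A, RpL32, RpL4, RpS6 and the divergent partner genes were named after their values were seen. Values of 1 member named by the rule are not reported here.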

Additional observations from a re-analysis of the deposited data

How the results depend on the processing

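The count of bound members was 76 (all genes 29.0%) and 82 (39.3%) with promoter windows of 250 and 1000 bp, in that range with interval overlap (81) or 1 start site per gene (79), was 76 (32.0%) with peaks found in all 3 replicates, 86 (45.8%) among 2 times as many pooled peaks, and 54 (all genes 21.8%) among the strongest 50% of thresholded peaks. Leaving out 1 replicate in turn gave 76 to 79 (32.5 to 33.4%). The thresholded list itself was not remade, so these counts still draw on all 3 replicates. With that 50% the median rank was 2145, which that limit lowers by construction, and 30 members with no divergent neighbour were bound. The mean replicate share was 95.3% with all deposited peaks (all genes 52.7%), 56.5% with 50% as many peaks (21.7%), 80.1% with windows of 250 bp (29.2%) and 88.4% with 1000 bp (39.5%), and 84.2 to 84.8% without 1 replicate. The median summit position ranged from -83 to -77 bp. The TCT core was present in 33.7% of members at any start site (all genes 2.12%) and in 34.8% within 20 bp (5.73%). With the 4-letter core CTTT, chosen after seeing the data, it was 33.7% (5.64%). The M1BP core near summits was at 7.59% (6.65%). No result changed direction.

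No paired analysis was possible because there was 1 group and no test. Without read counts the depth behind a weak or missing peak is unknown, no untagged precipitation or accessibility data were analysed here, and whole embryos do not show in which cells a promoter was bound.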

Other observations

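Many ribosomal protein genes carry small nucleolar RNAs, which guide the modification of ribosomal RNA, in their introns. Of the 28 members with such an RNA inside the gene, 27 (96.4%) were bound, RpS9 being the exception, with a median rank of 2526. Of the 64 members with none, 52 (81.3%) were bound, with a median rank of 3117.5. Among all 84 protein-coding host genes of small nucleolar RNAs, these 28 members included, 61 (72.6%) were bound, against 35.4% of all protein-coding genes. The share of hosts outside the members was not counted separately. The RpL23A gene, which holds 4 of these RNAs, had the strongest peak of the member hosts.

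RpL5, RpL15 and RpL38 are known as genes of pericentromeric heterochromatin, and all were bound, as were 85.9% of all members. Other genes of such regions were not counted. RpL5 (2L, 22532279 to 22536884), whose protein carries the 5S ribosomal RNA, ranked 3885 with 3628, 6482 and 3805 in replicates 1, 2 and 3. RpL15 (3L, 27267255 to 27268445) ranked 5168 (5246, 11382 and 3698), and RpL38 (2R, 4515388 to 4516458) ranked 5658 (5616, 6570 and 5384). In replicate 2 each of these genes stood lower than in the other replicates. So did the members as a set, with a median rank of 3209 there against 2934 and 2677 in replicates 1 and 3. On chromosome 4, known for its heterochromatin marks, RpS3A ranked 2690 (3319, 3830 and 1874), the 7th strongest of 34 thresholded peaks there.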
